A study of Bos taurus with 2 samples.

Results

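Bovine miR-17, miR-18 and miR-19 relatives were measured in 2 fractions of raw cow milk whey on a 1-colour bovine miRNA microarray. The miRNAs were taken by name from the array design: miR-17, miR-18a, miR-18b, miR-19a, miR-19b, miR-20a, miR-20b, miR-93, miR-106, miR-106a and miR-106b, with any arm suffix. This gave 11 miRNAs of the 670 on the array, read by 22 of 1465 probes. The array names carry the cattle prefix (bta-miR-20a, bta-miR-19b, bta-miR-106b), which is left out below. They are miR-17-5p, miR-20a, miR-20b, miR-93, miR-106 and miR-106b of the miR-17 seed family, miR-18a and miR-18b, miR-19a and miR-19b, and miR-17-3p, the other arm of the miR-17 hairpin. The miR-25 and miR-92 relatives made from the same transcripts were left out, because they have a seed of their own.

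Both fractions came from raw milk of Holstein cows. Whey was spun at 10000 g for 90 min at 4 °C, the force given in the labels for a step they call ultracentrifugation, although that name usually stands for a higher force. The exosome fraction is the pellet after 2 washes in buffer, and the supernatant fraction is the whey left above it. RNA from 3 samples was mixed in equal parts and 40 ng was labelled with Cy3, so each fraction is 1 pool on 1 array. No difference below has a replicate check, no test was run, and ± values are SDs between spots of 1 array, which cover technical spread only. Because 40 ng was labelled from each fraction, a signal reads a share of the labelled RNA and not an amount in the whey. Vesicle number and RNA per vesicle were not measured and cannot be told apart here.

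The 3 seed families belong to the miR-17-92 cluster and its paralogues, groups of hairpins cut from shared primary transcripts. A seed is the short stretch near the 5′ end of a miRNA that pairs with target mRNAs, so miRNAs with a common seed share most predicted targets. The miR-17 family is known for repressing CDKN1A, an inhibitor of the cell cycle. The clusters are active in dividing cells, and blood cells and epithelia both express them. In milk, miRNAs travel partly inside vesicles that shield them from nucleases.

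The probes come first because relatives differ by few bases, and the calls of 2 miRNAs rest on 1 probe each. All 11 miRNAs had 2 probes, and in each of the 11 pairs the longer probe was the shorter one with 1 base added at its 3′ end. Probe sequences are those of the deposited array design, 5′ to 3′. The longer probes of the 5 brightest relatives on the exosome array are shown with the added base in capitals.
miR-20a: ctacctgcactataagcaC
miR-19b: tcagttttgcatggatttgC
miR-106b: atctgcactgtcagcaC
miR-17-5p: actacctgcactgtaagC
miR-106: tacctgcactgtaagcA

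Within a family the probes are close to each other. The longer probes are shown again with capitals at bases that differ from the aligned miR-20a probe.
miR-17-5p: actacctgcactGtaagc
miR-106: tacctgcactGtaagca
miR-20b: tacctgcactGtGagc
miR-106b: aTctgcactGtCagcac
miR-93: tacctgcacGaACagc

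The miR-17-5p and miR-106 probes each differed from the miR-20a probe by A12G, counted from 1 at the 5′ end of the miR-20a probe, with its base given before the position. They matched each other over 16 bases without a mismatch. The miR-20b probe differed from that of miR-20a by A12G and A14G. In the other families the difference from the relative was 1 base, shown in capitals for miR-19a against miR-19b and for miR-18b against miR-18a.
miR-19b: tcagttttgcatggatttgc
miR-19a: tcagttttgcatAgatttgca
miR-18a: tatctgcactagatgcac
miR-18b: taActgcactagatgcac

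The substitutions are G13A in miR-19a, counted on the miR-19b probe, and T3A in miR-18b, counted on the miR-18a probe. No probe of the other 659 miRNAs lay within 2 mismatches of a probe of these families, aligned over at least 12 bases and all but 1 of the shorter probe. The longer probes of the 6 miRNAs of the miR-17 family share the stretch CTGCAC, which stands in the probes of 1 of those 659 miRNAs, 0.152%. The miR-18a and miR-18b probes carry it too, so it is not particular to the miR-17 family. GC content of the longer probes ran from 33.3% to 56.2%, with a median of 47.4%, and over all miRNAs the median was 50%.

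The array design places the probes in HGSC Btau_3.1. Along chromosome 12 the longer probes lie in the order miR-17-5p (chr12:64665122-64665138), miR-17-3p (chr12:64665156-64665171), miR-18a (chr12:64665255-64665271), miR-19a (chr12:64665435-64665454), miR-20a (chr12:64665565-64665582) and miR-19b (chr12:64665737-64665756). Several of these intervals are 1 base shorter than the probe, which leaves 1 base of doubt in them. The miR-106b and miR-93 probes lie at chr25:38455588-38455603 and chr25:38455792-38455806. The miR-106, miR-18b and miR-20b probes, and a second match of the miR-19b probe, lie on a scaffold that this build does not place on a chromosome. Each of the 11 also has a miRNA gene in RefSeq's ARS-UCD2.0 annotation, from which no position was taken. There MIR106B and MIR93 overlap MCM7, a replication licensing gene, and MIR106A has MIR18B, MIR20B and MIR19B-2 within 10 kb.

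Detection was compared first. A spot counts as well above background by the scanner software's flag, which on the exosome array began at a processed signal of 17.7 and on the supernatant array at 18.6. Processed signal is spot brightness after background subtraction, in intensity units. A probe was called detected where at least 50% of its spots carried the flag, and a miRNA by 1 detected probe or more. The exosome array detected 3 of the 11 miRNAs, 27.3%, against 9.85% of all 670. The supernatant array detected 0 of the 11, against 12.7% of all 670. Detection on the exosome array only, the pattern of these 3, was called for 5.37% of all miRNAs. Detection on both, or on the supernatant array only, was called for 0 of the 11, against 4.48% and 8.21% of all miRNAs. The 3 are miR-20a and miR-106b of the miR-17 family (2 of 6) and miR-19b of the miR-19 family (1 of 2). The miR-18 family had 0 of 2, and miR-17-3p was not detected.

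miR-20a, which shares its seed with miR-17-5p, gave the brightest reading of the families. On the exosome array its longer probe read 73.5 at its lowest spot, 89.5 at the median and 102 at the highest, with a mean of 88.5 ± 7.61 over 30 spots. On the supernatant array the same probe read from -3.76 to 8.99 over 29 spots, with a mean of 1.20 ± 3.16. The lowest exosome spot thus lay above the highest supernatant spot. Such a gap nearly follows from detection on the exosome array only. The share of all probes with such a gap was not counted, here or for the probes below. The shorter miR-20a probe read 47.9 ± 6.61 and 1.09 ± 3.37, and its spots also did not overlap between the arrays (34.9 at the lowest on exosome, 7.75 at the highest on supernatant). All 60 exosome spots of both probes were well above background, and miR-20a was the only one of the 11 with both probes detected.

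miR-19b, which has hairpins in both the miR-17-92 cluster and a paralogous cluster, was detected by 1 probe. Its longer probe read from 27.0 to 45.8 on the exosome array, with a median of 34.0 and a mean of 34.9 ± 4.87 over 30 spots, all well above background. On the supernatant array it read from -7.38 to 8.34, with a mean of 0.34 ± 3.77. These spots did not overlap between the arrays. The shorter probe, which lacks the final C, read only 4.62 ± 3.04 on the exosome array with 0 of 30 spots well above background, against -2.76 ± 3.53 on the supernatant array. Here the spots overlapped, from -4.59 to 9.40 on exosome and from -9.47 to 2.95 on supernatant.

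miR-106b, made from an intron cluster with miR-93 and miR-25, was the dimmest of the 3. Its longer probe read from 12.9 to 27.9 on the exosome array, with a median of 20.4 and a mean of 20.8 ± 3.51, and 23 of 29 spots, 79.3%, were well above background. On the supernatant array that probe read 1.25 ± 2.87, with 8.75 at the highest of 30 spots. The exosome spots again lay above all supernatant spots. The shorter probe read 6.05 ± 3.98 and -2.47 ± 3.02, and was not detected on either array.

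miR-17-5p, the founding miRNA of the family, lay just outside the call. Its longer probe read 14.2 ± 2.59 on the exosome array, from 9.08 to 18.5, and 4 of 30 spots, 13.3%, were well above background. On the supernatant array it read -1.17 ± 3.71, with 5.71 at the highest spot. The shorter miR-17-5p probe read 0.40 ± 2.33 and -1.95 ± 2.86. The scanner software, which makes its own call per miRNA, called miR-17-5p detected on the exosome array, which gave 4 of the 11 against 11.8% of all 670. miR-106, whose probes differ from those of miR-17-5p mainly in where they end, read 7.62 ± 3.40 with its longer probe and -0.72 ± 2.21 with its shorter one on the exosome array. Its supernatant readings were -2.07 ± 2.86 and -2.33 ± 3.46. Under looser and stricter rules the exosome count changed and the supernatant count stayed at 0. Counting spots that were merely positive and significant, 5 of the 11 were detected on exosome, with miR-17-5p and miR-106 added, against 26.3% of all miRNAs, and 0 on supernatant, against 27%. Asking for every probe left 1, miR-20a, against 5.22% on exosome and 11% on supernatant. At 75% of spots the count was 3, against 9.25%, and at 25% it was 3, against 10.1%. Signal from miR-20a on the probes of miR-17-5p and miR-106, from which it differs by 1 probe base, was not tested.

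**Figure D1:**
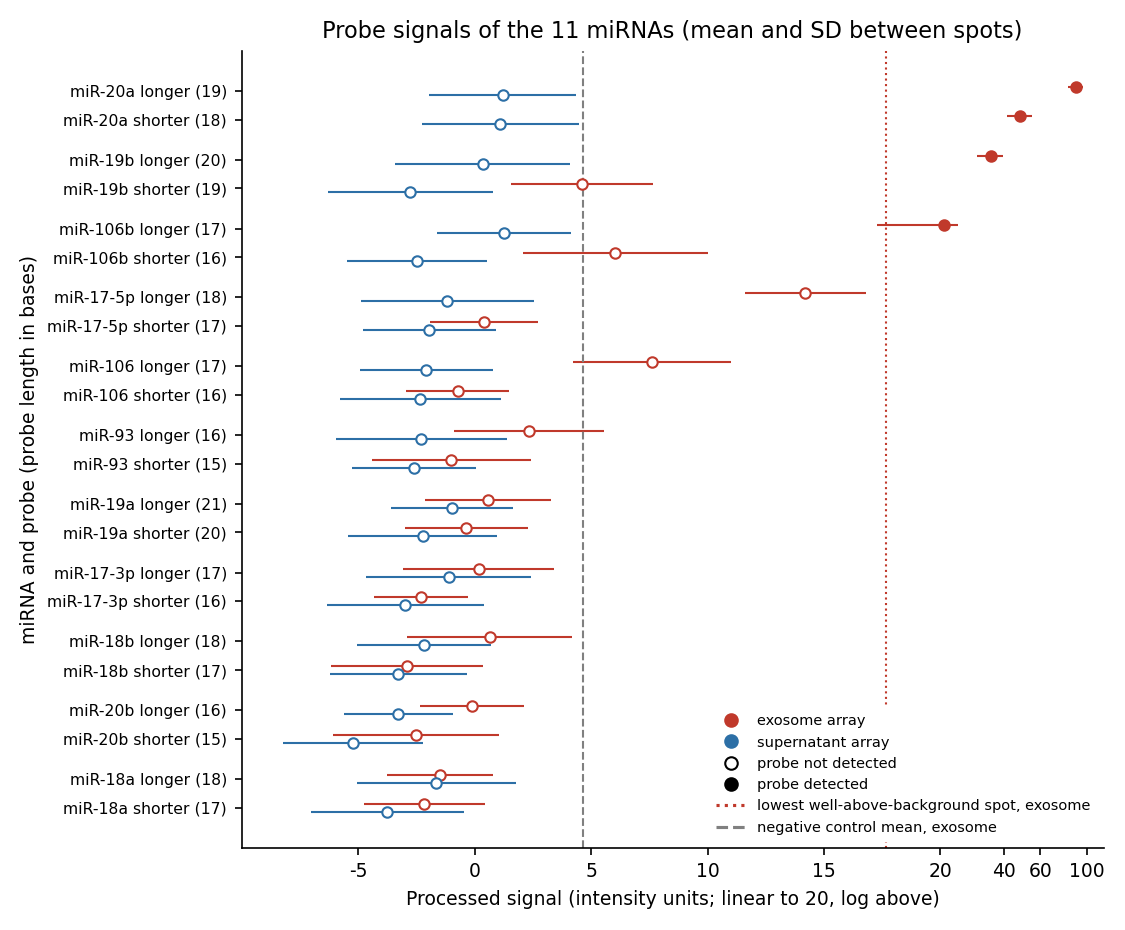
Processed signal (x axis, intensity units, linear to 20 and log above) of the longer and shorter probe of each miRNA (y axis, probe length in bases in parentheses), as means with SDs between spots, on the exosome (red) and supernatant (blue) arrays. Filled points are detected probes: both miR-20a probes and the longer probes of miR-19b and miR-106b, all on the exosome array.

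The other 6 miRNAs stayed near background. On the exosome array their signals, averaged over both probes, were 0.67 ± 3.31 for miR-93, 0.11 ± 2.66 for miR-19a, -1.07 ± 2.70 for miR-17-3p, -1.13 ± 3.41 for miR-18b, -1.30 ± 2.97 for miR-20b and -1.82 ± 2.44 for miR-18a. Each of these lay below the mean of the negative control spots, 4.67 ± 3.46 over 981 spots, as did miR-106 at 3.45 ± 2.87. The median over all 670 miRNAs, -0.52, also lay below that mean, so this place is common on the array. Neighbours in this order, from miR-93 down, differed by less than 1 SD between spots. Above them stood miR-20a, miR-19b, miR-106b and miR-17-5p, at 68.2 ± 7.13, 19.7 ± 4.06, 13.4 ± 3.75 and 7.30 ± 2.47. miR-20a lay apart from miR-19b by more than their spread, whereas each further step down to miR-106 was under the sum of the 2 SDs. Brightness also depends on probe sequence and length, so this is an order of readings and not of amounts.

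On the supernatant array the 11 signals ran from -4.25 for miR-20b to 1.15 for miR-20a. All 11 lay below the mean of the negative controls there, 4.41 ± 3.35 over 976 spots. So did the median over all 670 miRNAs, -0.67, so this place is common on the array. None of the 643 spots of the 11 miRNAs was well above background, and the brightest read 8.99. The array detected 85 miRNAs, and over the 53 probes that passed on each array, the 75th percentile of signal was 15030 there and 473 on the exosome array. Spiked labelling controls read lower there, at 68.4 and 44.5 against 237 and 116 on the exosome array. The part of labelling in the missing supernatant signal was not tested. Detected miRNAs of the supernatant array had GC-rich longer probes, with a median of 71.4% against 47.4% for these families and 52.9% for the miRNAs detected on the exosome array. The part of base composition in the missing supernatant signal was not tested.

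Readings within a family were also uneven where the probes are almost alike. The longer probe of miR-19b read 34.9 ± 4.87 and that of miR-19a 0.58 ± 2.70, but the miR-19a probe is 1 base longer and lower in GC (33.3% against 40%), so the readings do not compare amounts. The chromosome 12 cluster read near background for miR-17-3p, miR-18a and miR-19a, brightest for miR-20a and miR-19b, and in between for miR-17-5p, whose longer probe read 14.2. On chromosome 25 miR-106b was detected and miR-93 was not. The unplaced scaffold held 0 detected miRNAs of its own, and miR-19b, which matches there too, could come from either hairpin.

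**Figure D2:**
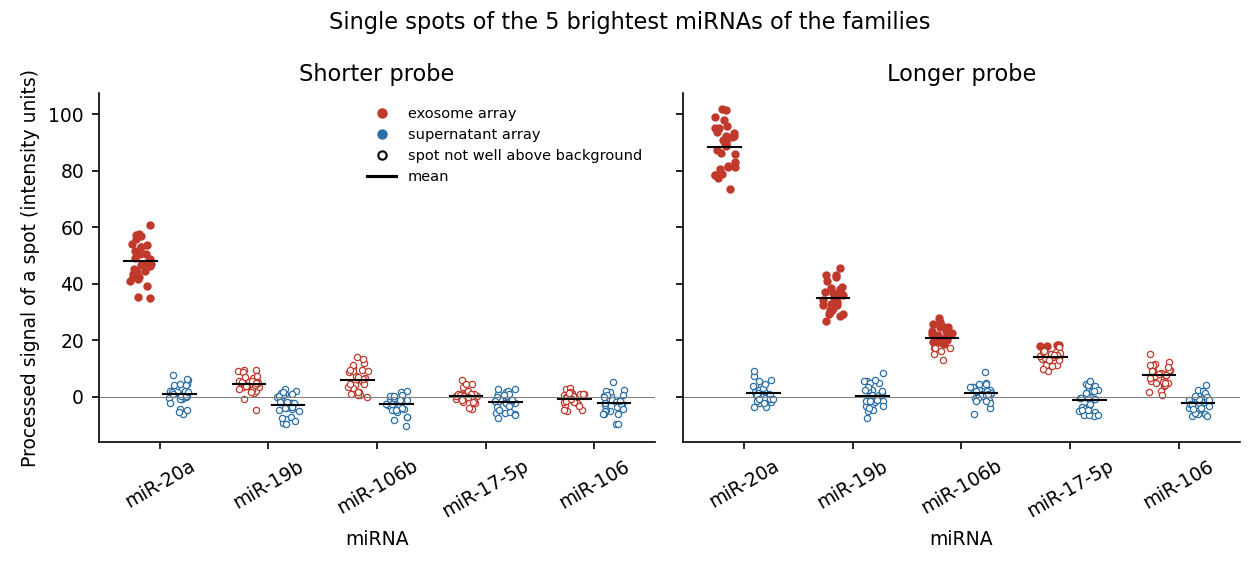
Processed signal of single spots (y axis, intensity units) for the 5 brightest miRNAs of the families (x axis), with the shorter probe on the left and the longer on the right, on the exosome (red) and supernatant (blue) arrays. Filled points are spots well above background and bars are means. The longer probes of all 5 read higher on the exosome array, from 7.62 for miR-106 to 88.5 for miR-20a.

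The added base went with a brighter reading in each of the 11 pairs. On the exosome array the longer probe was the brighter one in 11 of 11 pairs, against 79.4% of the 582 miRNAs with 2 probes. On the supernatant array it was also 11 of 11, against 75.3%, although all of those readings lay in the range of the background. Among detected miRNAs of the exosome array with 2 probes, 59 of 62 had the brighter reading on the longer probe. On the supernatant array this held for only 47 of 80 detected miRNAs, 58.8%. For miR-19b and miR-106b the call rested on the longer probe, with the added C, because their shorter probes had no spot well above background.

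Below the detection cut-off, mean readings were also higher on the exosome array, mostly by less than the spread between spots. All 11 miRNAs and all 22 probes had a higher mean signal there than on the supernatant array, without scaling. This held for 63.4% of all miRNAs, for 57.9% of all 1465 probes and for 69.8% of the 549 miRNAs detected on neither array. The median difference, exosome minus supernatant, was 2.33 intensity units for the 8 relatives detected on neither array and 0.48 for all 549. For 6 of the 8 the difference was below the exosome SD between spots, from 0.88 for miR-18a (SD 2.44) to 3.11 for miR-93 (SD 3.31). It was above that SD for miR-17-5p, at 8.86, and for miR-106, at 5.65.

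**Figure D3:**
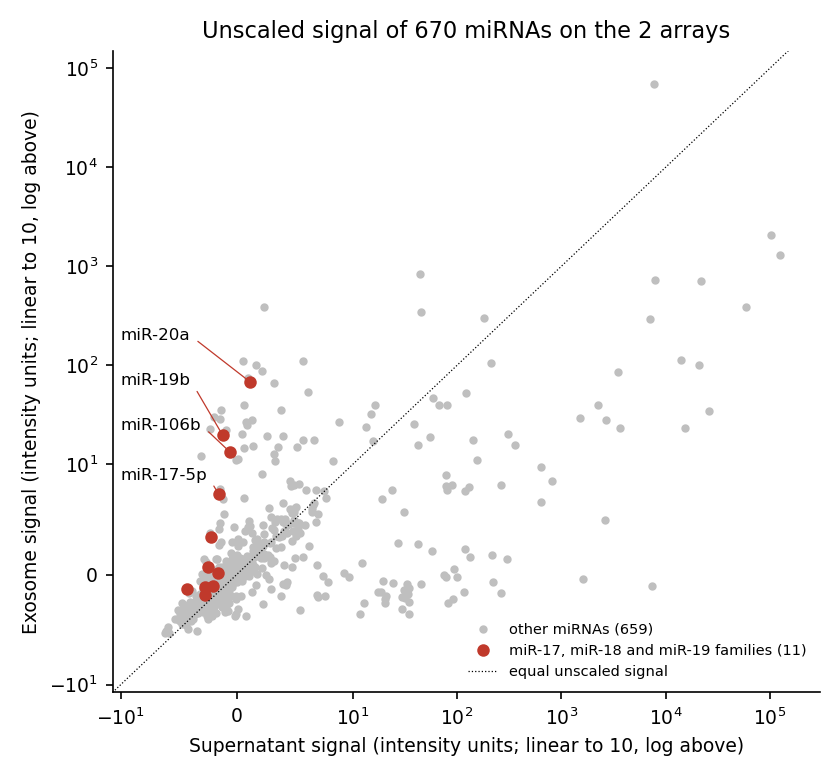
Unscaled processed signal of each of 670 miRNAs on the supernatant array (x axis) against the exosome array (y axis), in intensity units, linear to 10 and log above, with the dotted line at equal signal. The 11 miRNAs (red) all lie above the line, and miR-20a, at 68.2 on exosome and 1.15 on supernatant, lies farthest from it among them.

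The size of the difference could be given only as a lower bound, since the supernatant signals were at background. The bound sets the exosome signal against the higher of the miRNA's own supernatant signal and the lowest signal of a detected miRNA on that array, which was 7.04 for miR-2406, a miRNA with 1 of 3 probes detected. Without scaling, miR-20a read at least 9.70-fold higher on the exosome array, miR-19b at least 2.81-fold and miR-106b at least 1.91-fold. Scaling both arrays by that 75th percentile raised each log2 value by 4.99, to 8.27 for miR-20a, 6.48 for miR-19b and 5.92 for miR-106b. All 3 then passed 2-fold, as did 7.76% of all miRNAs, and without scaling 2 did, against 5.07%. With that shift even the dimmest miRNA detected on the exosome array, at 8.21, passes 2-fold over the floor of 7.04. Passing with scaling therefore restates detection on the exosome array only and adds nothing to it.

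The bounds of miR-19b and miR-106b depended on the floor and on the scaling. With the next lowest detected miRNA of the supernatant array as the floor, miR-2330* at 11.7, the unscaled bounds fell to 5.83-fold for miR-20a, 1.69-fold for miR-19b and 1.15-fold for miR-106b, and 3.43% of all miRNAs passed 2-fold. With the brightest probe of each miRNA alone, where the floor was 19.4, the unscaled bounds were 4.57-fold, 1.80-fold and 1.07-fold in the same order, and 3.58% passed. With a floor at the mean of the negative controls plus 3 SD, 14.5, miR-20a had 4.72-fold, miR-19b 1.37-fold and miR-106b no bound, and 2.69% passed. Spiked labelling controls read 3.47-fold and 2.60-fold higher on the exosome array, while hybridisation controls, added after labelling, read 0.96-fold and 0.93-fold. Scaled to the labelling controls, miR-20a kept a bound of 3.23-fold and miR-19b and miR-106b had none, and 1.79% of all miRNAs passed 2-fold. Scaled to the hybridisation controls, the bounds were 10.3-fold, 2.97-fold and 2.02-fold, and 5.22% passed. All 3 miRNAs also passed with the percentile of all probes (5.67% of all miRNAs), with quantile normalisation (7.31%) and with the software's total signal or the deposited value table (9.10%). miR-20a read at least 2-fold higher on the exosome array under each of the 18 processing choices tried, miR-19b under 14 and miR-106b under 13. The share of all miRNAs that passed 2-fold ran from 1.79% to 9.10% over these choices. Many of the 18 share the scaling over probes detected on both arrays, so the tally does not count separate checks. Under that scaling, passing 2-fold nearly follows from detection on the exosome array only.

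**Figure D4:**
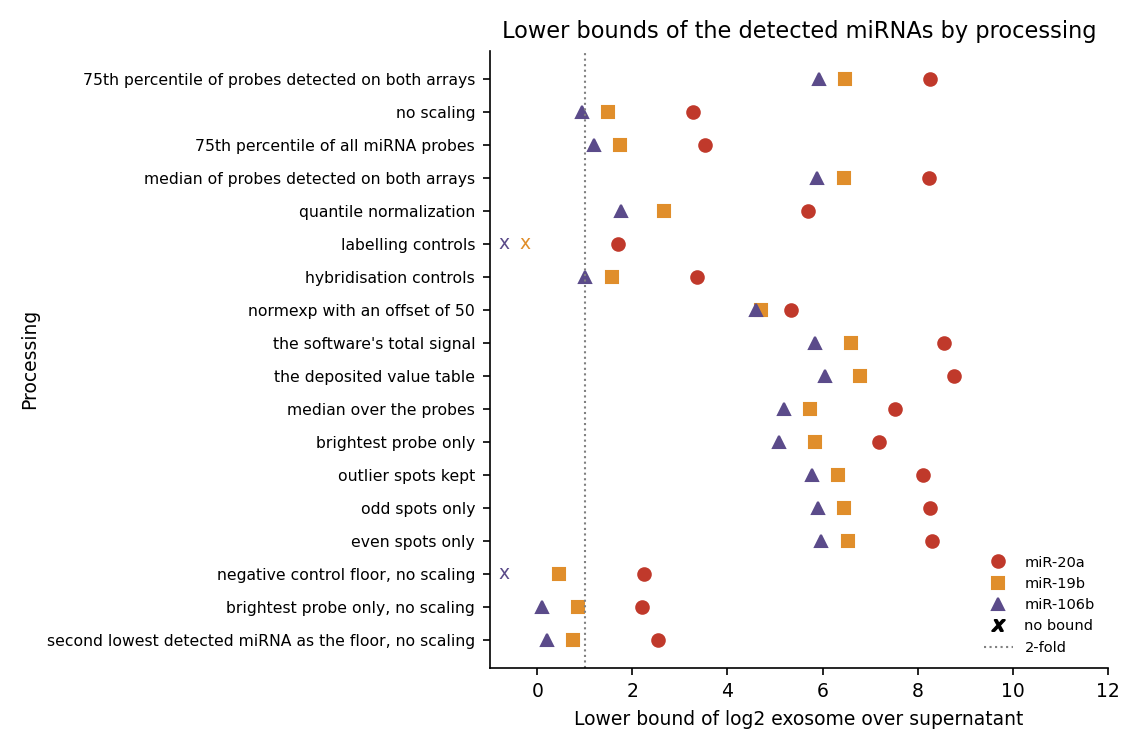
Lower bound of log2 exosome over supernatant (x axis) for miR-20a, miR-19b and miR-106b under each of 18 processing choices (y axis), with crosses where no bound could be given and a dotted line at 2-fold. miR-20a lies right of the line throughout, from 1.69 with labelling controls to 8.76 with the deposited value table.

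miRNAs of the miR-25 and miR-92 seed, left out by the seed rule, were read on the same arrays. Of 4 such miRNAs, which include miR-92b, a relative by seed that RefSeq does not list within 10 kb of any of the 11, the exosome array detected 2 and the supernatant array 1. The shares over all 670 miRNAs were 9.85% and 12.7%. miR-25, cut from the transcript of miR-106b and miR-93, read 19.3 ± 3.04 on exosome and 3.95 ± 2.75 on supernatant. miR-92 was detected on both, at 46.7 ± 5.66 and 58.7 ± 5.90, so 1 cluster relative was read on the supernatant array. miR-363 and miR-92b were not detected on either.

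Other miRNAs detected on the exosome array only had readings like those of the 3, by the smallest difference in log2 exosome signal among 33 candidates over 2 arrays. Nearest to miR-20a were miR-103 at 66.8 ± 6.81, miR-26a at 74.4 ± 6.32 and miR-29c at 53.5 ± 6.36. Nearest to miR-19b were miR-25, miR-331 at 19.3 ± 3.85 and miR-27b at 20.3 ± 3.42. Nearest to miR-106b were miR-29b at 12.7 ± 3.29, miR-140 at 14.7 ± 3.62 and miR-23b-3p at 12.2 ± 2.73.

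The labelled source was set against marker miRNAs. Of 17 milk and mammary epithelial miRNAs, the exosome array detected 13 (summed signal 2414) and the supernatant array 7 (summed signal 713). Over all 670 miRNAs the shares were 9.85% and 12.7%. In the exosome sum, let-7b and let-7a alone read 828 and 385. Of the 17, miR-30a-5p, miR-30d and miR-320 read lower on the exosome array, at 39.7, 52.6 and 105.5. On the supernatant array they read 80.8, 121.6 and 213.8. The listed let-7a*, miR-21, miR-21* and miR-99a* were detected on neither array. Whether the 17 are particular to epithelium was not tested. Of 23 markers of leukocytes, red blood cells, muscle, liver, neurons, endothelium and mesenchyme, the exosome array detected 0 (summed signal 2.54) and the supernatant array 4 (summed signal 195). The shares over all 670 miRNAs were again 9.85% and 12.7%. Most of the supernatant sum came from the muscle markers miR-133a and miR-133b, both detected there, at 78.9 and 74.8. The 5 leukocyte markers summed to 6.34 and 18.1, with miR-223 the 1 detected, on supernatant. The names miR-142 and miR-142* on the array were not matched by the list and were detected on neither array. The 3 erythroid markers summed to -2.10 and 33.4, with miR-486 the 1 detected, also on supernatant. On the exosome array miR-223 was the highest of these 8 blood-cell markers, at 6.83 averaged over its probes, and was not detected. The part of blood cells in the signals of miR-20a, miR-19b and miR-106b was not tested. The arrays hold miRNAs only, so whether the pellet carried vesicle proteins was not measured here.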

How the data were processed

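Per the labels' protocols, RNA of 3 samples was pooled per fraction, labelled with Cy3 and hybridised to 1 array each. Per the submitters' processing notes, the software was Agilent's Feature Extraction, version 10.7.3.1. Its deposited output gives an intensity per spot, background-subtracted and not scaled between arrays, with flags. The authors' value table holds log2 values and equals log2 of the software's total signal per miRNA over 0.1, to within 6.2e-06.

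Outlier spots (19 and 17 of 660 for these miRNAs) were left out, and no spot was saturated. Spots were averaged per probe and probes per miRNA, with the root mean square of the probe SDs. Intensities were then scaled by the 75th percentile over 53 probes that passed on each array. The number of arrays, 1 per fraction, limits the precision, so no test was run. The miRNAs, lists and alternatives were chosen with earlier results of these data known. By rule, all 11 miRNAs, the cluster partners detected and the 3 most alike miRNAs of each detected one were named with values. miR-2406, miR-2330* and the single marker miRNAs named, miR-223 among them, were named after their values were seen. Mature sequences were not used here. Detection and bound steps were run on simulated spots. Simulated signals were mostly brighter than those of miR-19b and miR-106b and equal over the probes of a miRNA. Calls that rest on 1 dim probe were therefore not covered. Python 3.11.15, pandas 2.3.3, R 4.3.3 and limma 3.58.1 (normexp) were used.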

Additional observations from a re-analysis of the deposited data

How the results depend on the processing

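The count of 3 miRNAs detected on the exosome array held with at least 75% or 25% of spots required, with outlier spots kept and with odd or even spots alone. It was 4 with the software's call, 5 with spots merely positive and significant, and 1 with every probe required (miR-20a). The rule of positive and significant spots added miR-17-5p and miR-106, and it also passed 63.2% of negative control spots on the exosome array and 26.3% of all miRNAs. The supernatant count was 0 under each of these rules. The count of bounds of at least 2-fold, 3 with scaling, was 1 (miR-20a) with labelling controls. It was also 1 without scaling when the floor was the negative control mean plus 3 SD, when only the brightest probe was used, and when the next lowest detected miRNA set the floor, all chosen after seeing the data. It was 2 without scaling and 4, with miR-17-5p added, with the software's total signal or the value table. No bound could be given for miR-19b and miR-106b with labelling controls, or for miR-106b with the negative control floor. Where a bound existed it ran on the log2 scale from 1.69 to 8.76 for miR-20a, from 0.45 to 6.80 for miR-19b and from 0.10 to 6.05 for miR-106b. A value at or below 0 counts as no bound, so a bound could not reverse. With normexp the bounds were 5.34, 4.71 and 4.60, and its offset of 50 exceeds most of these signals. All 88 alternative signals lay within 1 SD between spots, but they average spots of the same array again, so little else was possible. Of 48 alternative bounds only 14 lay within 1 SD of the main one, and 3 further alternatives gave no bound. No paired analysis was possible because each fraction is 1 array.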
